A study of Bos taurus with 8 samples.

Results

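Lines I9 and N2 were compared with lines I2, P1 and P4 among bovine embryo-derived stem-like cells (eSLCs), which grow as colonies from blastocysts. These were 5 of the 8 arrays of the series, and N7, the sixth eSLC line, was left out of both sets. The sets were chosen by the measured signals themselves, as the arrays whose log2 signals correlated most closely, and they are not groups of the study. Values between them are therefore a description with no test. N7 is in neither set, but its own signals may be why it was left out. The somatic cells (SCs) did not enter the choice. The values of N7 and the SCs are given beside the sets.

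The cells all came from HanWoo, the Korean native cattle breed. I9 (passage 30) and I2 (passage 35) were IVP-eSLCs, from blastocysts produced by fertilization in vitro. N2 (passage 36) and N7 (passage 30) were NT-eSLCs, from embryos made by fusing a cell of ear skin with an enucleated oocyte, and P1 (passage 31) and P4 (passage 36) were PA-eSLCs, from oocytes activated without sperm. Every eSLC line was kept on murine STO feeder cells stopped from dividing with mitomycin C, in a medium with inhibitors of MEK, the FGF receptor and GSK3, whereas SCs (passages 5 and 10) grew in serum. Each line was measured once, on a 1-colour Agilent array of its own, so differences between lines include any difference between cultures.

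The bovine blastocyst holds an outer trophectoderm, an inner cell mass that gives the epiblast, and the hypoblast. Trophectoderm of ruminants makes keratins, pregnancy-associated glycoproteins (PAGs, secreted relatives of aspartic proteases) and interferon tau, and it expresses transcription factors such as CDX2, GATA2 and GATA3. Embryo-derived lines of cattle commonly take on these features in culture, and single lines may differ in imprinting and in the maturity of the trophoblast.

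Signals are given here as the background-subtracted intensity scaled so that the 75th percentile of each array is 1000, with a floor of 13.3, below which values have no order. Between 71.2% and 76.7% of an array's spots passed the scanner software's flag for signal well above background (called detected here), and 0 spots were saturated. Of 12602 named genes, 10414 were detected throughout at least 1 set and were compared. A gene was called set apart when every array of its brighter set was at least 2-fold above every array of its dimmer set and the gene was detected throughout the brighter set. Across the 10414 genes Pearson's r was 0.993 between I9 and N2, which is as high as between SC P5 and SC P10 (0.993). It was 0.978 to 0.985 among I2, P1 and P4, 0.954 to 0.970 between the sets, and 0.941 to 0.963 between N7 and the other eSLCs. Slide and passage cut across the sets: I9 and I2 shared slide 1, and N2, P1 and P4 shared slide 2. Origin did so only through the IVP lines I9 and I2, since both PA lines lay in 1 set and N2 in the other.

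The array labelled P1 did not match its label at Y-linked genes. A parthenogenetic embryo has no Y chromosome, yet DDX3Y, a Y-linked RNA helicase, had a signal of 369 in P1 and USP9Y, a Y-linked deubiquitinase, one of 157. N7 gave 758 and 186, and the other 6 arrays were at the floor for both genes. EIF1AY, a Y-linked translation factor, had 514 in N7 and was at the floor in P1. The counts over all genes, and those of most gene lists described below where they changed, are therefore also given without it, a choice made after the values were seen.

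I9 and N2 differed by at least 2-fold at 241 genes, and the pairs among I2, P1 and P4 at 716 to 1036 genes. A line of 1 set differed from a line of the other at 1433 to 2142 genes. Genes set apart numbered 318 higher in I9 and N2, or 3.05% of those compared, and 247 lower, or 2.37%. Without the array labelled P1 the counts were 412 and 328. Under this rule leaving out an array can only add genes, so all 318 and all 247 had to remain. The median log2 difference was 2.13 among the 318 and -1.98 among the 247, against -0.07 over all genes compared. Differences of 8-fold or more in the means were found at 61 and 41 of them. The nearest genes inside the limit of 1 on the log2 scale were TMEM263 and GREM1 (both 1.0) among those higher and KRT89 and NKX2-3 (both 1.002) among those lower. The nearest outside were DSC3 (0.999) and DAGLA (0.997), and PIGN (0.991) and FGFR1 (0.99). By the weaker condition that the arrays did not overlap, 2084 genes were higher (20.0%) and 2801 lower (26.9%).

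The widest gap upward was at RPAP2, a phosphatase of the RNA polymerase II tail, with signals of 4740 in I9 and 3560 in N2 against 54.7 in I2, 27.7 in P1 and 48.4 in P4. N7 gave 236 and the SCs 92.6 and 95.2. Its other probe did not differ between the sets (-0.05), and in the authors' normalized values the difference was -0.26, so this gap rests on a single probe. GJB6, the gap junction protein connexin 30, followed with 3770 and 6130 against 22.9, 110 and 235, and both of its probes gave a difference over 5 on the log2 scale (5.24 and 5.84). GJB6 was low in N7 (16.4) and at the floor in both SC arrays. GJB2, connexin 26 and the next gene along the chromosome, chosen for mention after its values were seen, had 3540 and 4490 against 719, 891 and 513.

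F2RL2, a G protein-coupled receptor of the protease-activated group, had 4240 and 4440 against 154, 136 and 362, and N7 (204) lay with the lower set. F2R, the thrombin receptor beside it, named after its values were seen, had 1260 and 1820 against 224, 408 and 272. VIPR2, a receptor for vasoactive intestinal peptide, had 4190 and 5690 against 326, 373 and 428. Within each set these values were close together, and the sets lay far apart. GPR183, a receptor for oxysterols, had 328 and 455 against 33.5, 34.0 and 35.9. BHLHE41, a repressor of the circadian clock, had 1030 and 1540 against 65.5, 68.6 and 114, and here the SCs (1330 and 1040) were at the level of I9 and N2. The lowest of its 3 detected probes gave only 0.24.

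Other wide gaps were at genes that are far brighter still in SCs. THBS1, which encodes the matrix protein thrombospondin 1, had 1190 and 2040 against 45.3, 105 and 142, beside 131000 and 187000 in SCs, although 1 of its 5 detected probes gave only 0.19. ACTA2, smooth muscle actin, had 6720 and 16100 against 823, 597 and 471, beside 182000 and 246000 in SCs. PTN, the growth factor pleiotrophin, had 1730 and 1740 against 166, 205 and 167, beside 19500 and 19700 in SCs. For all 3 genes every eSLC array was below both SC arrays. JPH1, MTHFD2L and TMEM140 complete the 12, with I9 and N2 between 227 and 819 and I2, P1 and P4 at 58.2 or less. The lower of the 2 detected probes of JPH1 gave 0.71.

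**Figure D1:**
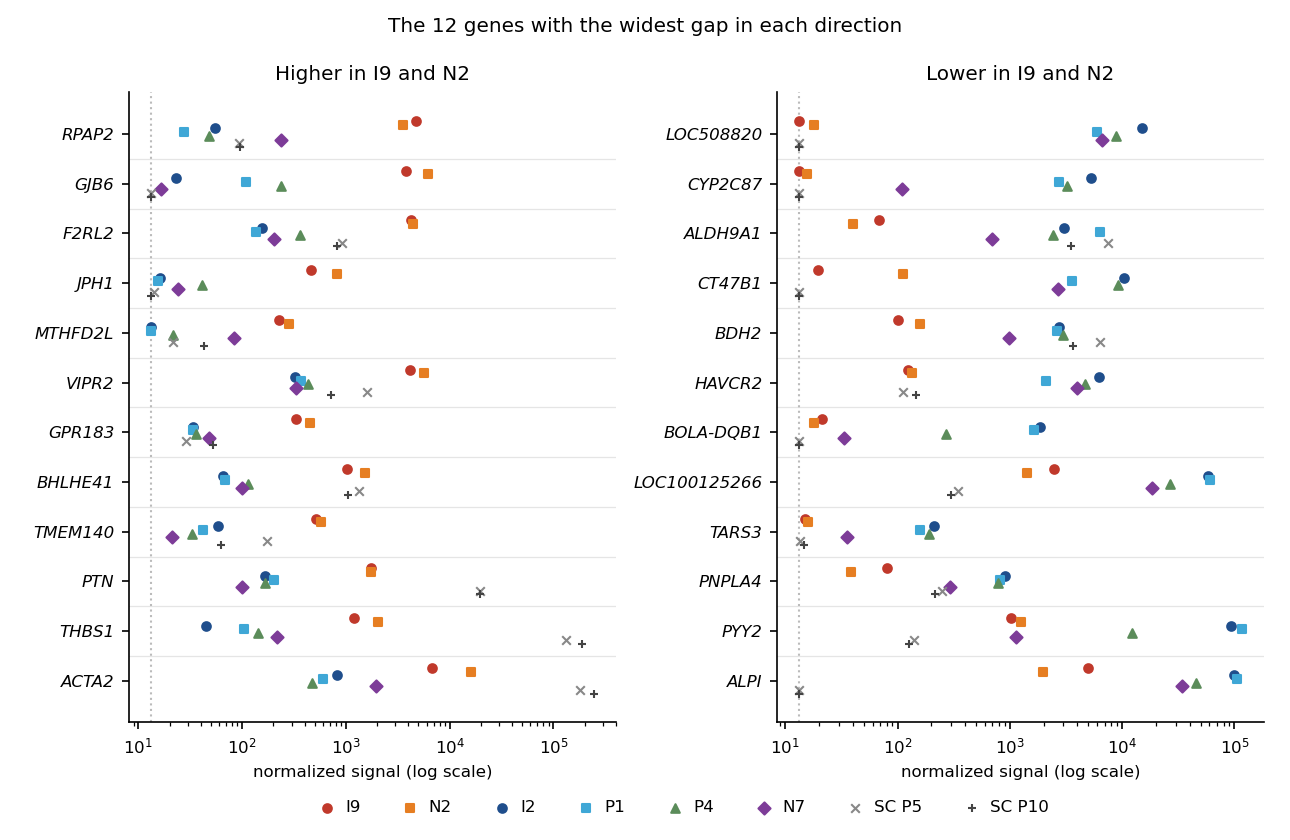
Normalized signal on a log axis of the 12 genes with the widest gap in each direction, with 1 point for each of the 8 arrays and the floor of 13.3 as a dotted line. I9 and N2 lie on the same side at each gene, at least 2-fold from I2, P1 and P4, though apart from each other at CT47B1 (19.4 and 113). N7 and the SCs fall on either side depending on the gene.

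Genes lower in I9 and N2 had the widest gaps of all. LOC508820 was at the floor in I9 and had 18 in N2, against 15000 in I2, 5940 in P1 and 8770 in P4. CYP2C87, a cytochrome P450 of family 2C, was at the floor in I9 and had 15.7 in N2, against 5260, 2760 and 3200. Both were at the floor in SCs, and N7 had 6630 for LOC508820 but only 110 for CYP2C87. CT47B1, a cancer/testis antigen, had 19.4 and 113 against 10300, 3550 and 9240. ALPI, the intestinal type of alkaline phosphatase, had 4980 and 1970 against 99600, 106000 and 45100, and was at the floor in SCs.

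Several of the lower genes encode metabolic enzymes that SCs express. ALDH9A1, an aldehyde dehydrogenase, had 68.3 and 40.0 against 3040, 6320 and 2430, with 699 in N7 and 7540 and 3510 in SCs. BDH2, a hydroxybutyrate dehydrogenase, had 102 and 160 against 2770, 2650 and 2960, with 979 in N7 and 6310 and 3680 in SCs. At both genes I9 and N2 were the lowest of all 8 arrays and N7 was in between. Immune genes also appeared: HAVCR2, the TIM-3 receptor, had 124 and 134 against 6190, 2100 and 4630, and BOLA-DQB1, a class II MHC chain, had 21.4 and 17.9 against 1860, 1630 and 271. HAVCR2 has a second probe without a difference (-0.03). LOC100125266, TARS3, PNPLA4 and PYY2 complete the 12, and of these PYY2, of the peptide YY family, was 1020 and 1270 against 93000, 117000 and 12300.

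Some genes were detected throughout the brighter set and on no array of the dimmer set, 11 upward and 14 downward. For these only a bound can be given, of the fold between the set means on the log2 scale. LILRA4, a leukocyte immunoglobulin-like receptor, had a mean at least 118-fold higher in I2 (2310), P1 (1340) and P4 (1230) than in I9 and N2. RBMXL2, NAA11 and RBM46, genes known from testis and germ cells, had means at least 6.39-fold, 7.83-fold and 5.48-fold higher in I2, P1 and P4. The other probe of RBMXL2 gave 0.10. Upward, the highest bounds were below that of LILRA4. The mean of GML, at 162 in I9 and 101 in N2, was at least 9.64-fold higher. That of FCGR1A, the high-affinity Fc gamma receptor, at 145 and 93.7, was at least 8.78-fold higher. FLRT3, an adhesion protein, had a mean at least 7.77-fold higher in I9 (134) and N2 (79.7). Its signal of 1400 in N7 was the highest of all arrays. With the scanner software's processed signal the differences of GML, TRIM55, HEPACAM2 and PIK3C2G, all of this kind, had the opposite sign.

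The labels call all lines stem-like cells, and their marker genes were those of trophectoderm in both sets. KRT8 and KRT18, the keratins of simple epithelium, had signals between 172000 and 390000 on the 5 arrays, against at most 879 in SCs. GATA3 was 35400 in I9, 34400 in N2, 26600 in I2, 30100 in P1 and 24400 in P4, and CDX2 was 5190 and 7430 against 10400, 13300 and 14900. Pluripotency factors were dim: POU5F1 was 30.8 and 45.2 against 50.6, 101 and 60.7, NANOG was 35.4 or less and SOX2 between 46.9 and 96.5. N7 had 899 for POU5F1. Of the 13 pluripotency and epiblast genes compared, DNMT3B was the only one set apart, and it was lower (background 2.37%). Without the array labelled P1, TFCP2L1, a factor of naive pluripotency, was set apart lower too.

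Of 20 transcription factors of trophectoderm, 3 were set apart higher (background 3.05%) and 1 lower (background 2.37%), with a median difference of -0.10. HAND1, which trophoblast giant cells require in the mouse, had 8940 and 8220 against 3480, 2290 and 2980. DLX5, a homeobox factor, had 4350 and 4740 against 1310, 1170 and 1160, and PPARG, the fatty acid-sensing nuclear receptor of trophoblast, had 2850 and 2520 against 1070, 655 and 1250. The directions of DLX5 and PPARG reversed in the authors' normalized values (-1.54 and -0.91) and with the processed signal. ASCL2, an imprinted factor of early trophoblast, was lower, with 3540 and 2490 against 9030, 10300 and 7730. Without overlap 7 of the 20 were higher (background 20.0%) and 9 lower (background 26.9%), among them members below the limit in both directions. CDX2 (-1.04), ELF5 (-1.09) and KLF5 (2220 and 2600 against 4550, 5940 and 4110) were lower, whereas TFAP2A had 8950 and 12000 against 3360, 5060 and 3870. With the array labelled P1 left out, 4 were set apart higher, TFAP2A among them, and 1 lower. GATA2 (0.00) and GATA3 (0.37) were nearly equal.

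Of the 48 gene lists examined, PAGs had the largest share of genes set apart upward, 6 of the 13 compared (46.2% against a background of 3.05%), and none was set apart downward. Their median difference was 1.77, and 11 of the 13 were higher without overlap of the arrays (background 20.0%). PAG4 had 35500 in I9 and 27500 in N2 against 4700 in I2, 5040 in P1 and 6530 in P4. PAG5 had 39700 and 38400 against 247, 8170 and 1090. PAG7 had 41000 and 42500 against 8260, 13300 and 11500. The other 3 were PAG6, PAG12 and PAG17, all between 33500 and 47700 in I9 and N2 and between 7070 and 15600 in I2, P1 and P4. N7 was below both sets at PAG4, PAG6, PAG7, PAG12 and PAG17 (3520 to 5920), so that it did not share the high state of I9 and N2, and SCs were at the floor.

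Not all members of the family went along. PAG2, which is expressed throughout the trophectoderm, had 160000 and 275000 against 74900, 146000 and 119000, a difference of 0.94, and PAG8 had 42800 and 52700 against 33300, 95500 and 30500, a difference of 0.05. PAG10 was dim everywhere, with 29.7 and 70.1 against 143, 37.7 and 654. Without the array labelled P1, 8 of 14 PAGs were set apart higher and 2 lower. PAG genes are close relatives, probes may read several of them, and PAG6 and PAG17 each have a probe with a difference near 0 (-0.09 and -0.03), so the count of members is uncertain. Among 21 other secreted products of trophoblast, TKDP2, a Kunitz-type inhibitor of trophoblast, had 185 and 398 against 28.7 or less, and CTSL, the protease cathepsin L, had 55600 and 94300 against 13000, 18100 and 17900. These were the 2 set apart higher (background 3.05%). PHLDA2 was the 1 gene of that list set apart lower (background 2.37%), and the median of the list was -0.47. Without the array labelled P1, 5 of 22 were set apart lower, namely PHLDA2 and the prolactin-related PRP2, PRP4, PRP6 and PRP14, and the median was -0.63.

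Imprinted genes gave 4 of 20 set apart lower in I9 and N2 (20% against a background of 2.37%) and 0 higher, with a median difference of -0.35 (0.01 without the array labelled P1, with the same count of 4). PHLDA2, a maternally expressed gene known to restrain placental growth, had 3960 and 4250 against 62200 in I2, 142000 in P1 and 18000 in P4. CDKN1C, its neighbour on chromosome 29 and a maternally expressed inhibitor of cyclin-dependent kinases, had 4780 and 6500 against 15700, 41200 and 18900. N7 lay with I9 and N2 at PHLDA2 (4270) and between the sets at CDKN1C (8310). ASCL2, in the same cluster, was lower as given above. NAP1L5, a paternally expressed gene, had 29.6 and 17.7 against 149, 123 and 154, and its direction reversed in the authors' normalized values (0.85). H19 was 49.8 and 25.3 against 106, 775 and 52.5, just without overlap, and NDN 48.1 and 60.9 against 787, 326 and 98.2. Both lines labelled PA lay in the brighter set here, beside I2 from fertilized embryos, so PA origin and set cannot be fully told apart. The paper reports PHLDA2, ASCL2 and H19 as higher, and NAP1L5 as lower, in PA-eSLCs than in IVP-eSLCs.

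DNA methyltransferases that set new methylation were both lower. DNMT3A had 5220 in I9 and 4270 in N2 against 35200 in I2, 32000 in P1 and 33600 in P4, and all 3 of its probes were lower (-0.88 to -2.83). N7 had 24000 and the SCs 898 and 1200. DNMT3B had 126 and 100 against 751, 532 and 430, with 506 in N7. At both genes N7 lay near I2, P1 and P4. With the processed signal the difference of DNMT3A was 0.44. DNMT1, which copies methylation at replication, was about equal (0.34), and UHRF1, its partner, was higher by 0.76. Of the 11 genes of DNA methylation and demethylation compared, DNMT3A and DNMT3B were the 2 set apart, both lower (background 2.37%).

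**Figure D2:**
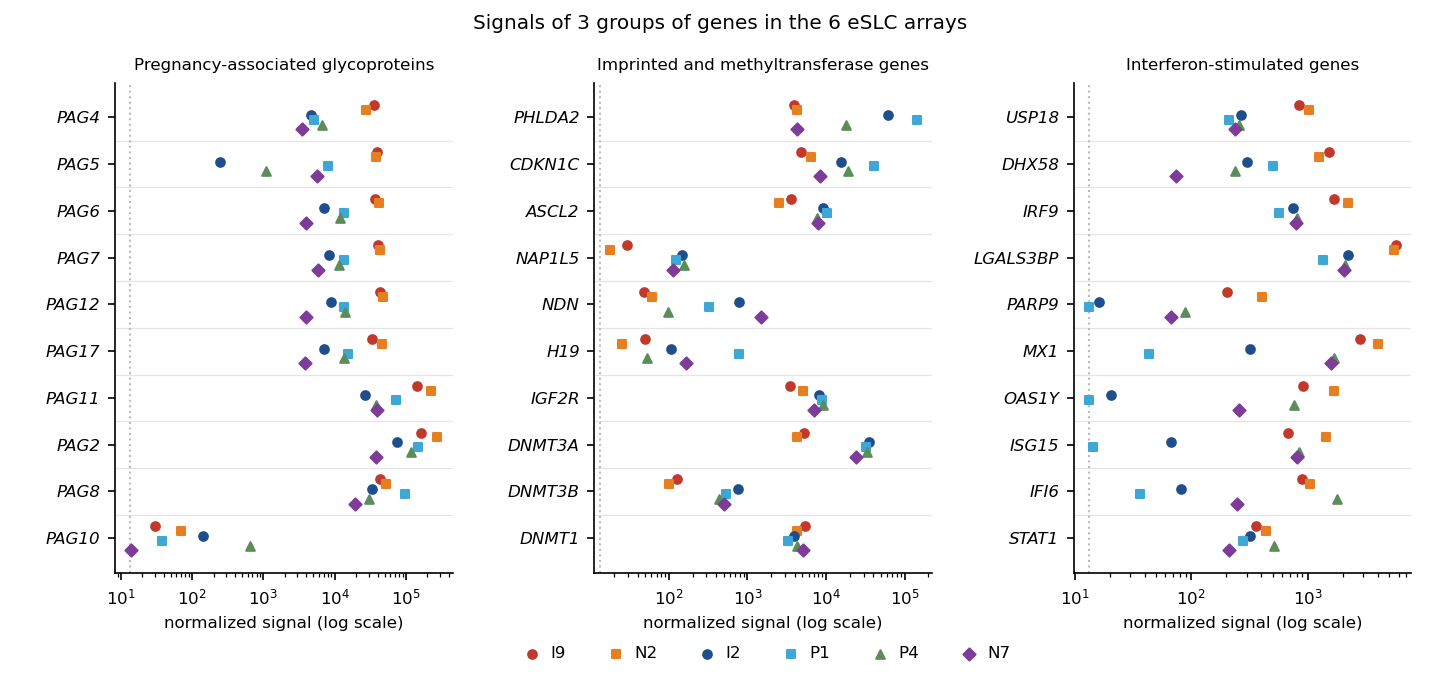
Normalized signal on a log axis in the 6 eSLC arrays for 10 PAGs, 10 imprinted and methyltransferase genes and 10 interferon-stimulated genes, with the floor of 13.3 as a dotted line. I9 and N2 stand apart from I2, P1 and P4 at the upper 6 PAGs, at PHLDA2, CDKN1C, DNMT3A and DNMT3B, whereas P4 reaches I9 and N2 at ISG15 and IFI6.

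Interferon-stimulated genes gave 5 of 25 set apart higher (20% against a background of 3.05%) and 0 lower, and their median difference was 1.52. Trophectoderm of ruminants secretes interferon tau, and these genes answer interferons. USP18, which damps interferon signaling, had 843 and 1030 against 267, 213 and 259. DHX58, a sensor of viral RNA, had 1520 and 1250 against 300, 501 and 239, and PARP9 had 202 and 408 against 16.2, the floor and 89.2. IRF9 and LGALS3BP were the other members set apart. The lowest detected probe gave only 0.62 for DHX58, 0.95 for PARP9 and 0.92 for IRF9. The best-known members of the list were not set apart, and P4 lay high at them: ISG15 was 673 and 1420 against 67.0 in I2, 14.5 in P1 and 847 in P4. MX1 was 2810 and 3960 against 321, 43.2 and 1670, and IFI6 was 885 and 1050 against 81.7, 36.3 and 1790. Relative to I2, P1 and P4 the median of the list was 1.28 in I9, 1.67 in N2 and 0.48 in P4, so that P4 was between the sets.

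Of 21 chemokine and interleukin family genes 3 were set apart higher (14.3% against a background of 3.05%) and 0 lower, with a median of 0.73. Without overlap 11 were higher (background 20.0%) and 2 lower (background 26.9%). CCL5 joined them, making 4, without the array labelled P1. IL6 had 176 and 386 against 16.4, the floor and 19.1, and TNF, the tumour necrosis factor, had 287 and 682 against 20.6, 15.0 and 90.1. IL1A had 125 and 259 against 20.1, 15.5 and 31.3. N7 lay between the sets at IL6 (64.5) and nearer to the lower set at TNF (25.5) and IL1A (44.0). AIF1, a calcium-binding protein of macrophages that lies beside TNF, named after its values were seen, was much brighter, with 11700 and 16300 against 3270, 2940 and 3510.

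Of 21 genes of the TGF-beta and activin pathway 3 were set apart higher (14.3% against a background of 3.05%) and 0 lower. Over the list 5 were higher (background 20.0%) and 5 lower (background 26.9%) without overlap, and the median was 0.18. The median was -0.01 without the array labelled P1. TGFB2 had 152 and 343 against the floor, 23.8 and 20.5, and TGFB3 had 431 and 434 against 71.4, 38.5 and 125. TGFBR2, the type II receptor, had 179 and 173 against 47.7, 36.0 and 58.6, and its lower detected probe gave 0.81. All 3 were brighter in SCs than in any eSLC array. GREM1, an antagonist of BMPs, just met the limit with 50.7 and 60.3 against 22.1, 24.5 and 25.3.

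The medium blocks MEK and the FGF receptor, and genes of ERK feedback are the usual readout of that pathway. DUSP6, the phosphatase that switches ERK off, had 3000 and 5350 against 388, 332 and 1380, with 1250 in N7. PHLDA1 had 32.7 and 45.0 and was at the floor in I2, P1 and P4. These were the 2 of 18 genes of the FGF list set apart (background 3.05%), and none was lower (background 2.37%). Both lie on chromosome 5, where 6.1% of genes were set apart higher. In the WNT list 2 of 22 were higher (background 3.05%) and 1 lower (background 2.37%). WNT6 had 2240 and 2310 against 986, 746 and 800, and WNT11 had 123 and 187 against 49.1 or less. The receptor FZD7 had 88.6 and 95.6 against 231, 241 and 204. All 3 directions reversed in the authors' normalized values, and 1 of the 3 probes of FZD7 gave 1.32.

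Matrix proteases and their inhibitors gave 4 of 24 set apart higher (background 3.05%) and 1 lower (background 2.37%). ADAMTS1 was set apart lower too without the array labelled P1. TIMP3, an inhibitor of metalloproteinases, had 3140 and 7220 against 37.0, 167 and 469. PLAT, the tissue plasminogen activator, had 1200 and 1310 against 150, 66.7 and 328, and PLAUR, the urokinase receptor, had 2370 and 3060 against 294, 440 and 900. PLAU, urokinase itself, went the other way, with 13200 and 14300 against 30400, 52500 and 32100. MMP13 was dim, at 45.5 and 56.5 against the floor, and a probe of it gave only 0.24. In the basement membrane list LAMB3 and the integrin ITGA6 were higher, at 1740 and 3150 against 508, 162 and 579 and at 1070 and 1310 against 303, 490 and 463. A probe of ITGA6 gave only 0.34. NID1 and NID2, the nidogens that link laminin to collagen, were lower and dim (at most 26.4 against 36.8 to 262), and N7 was far above both sets, at 1990 and 6850. The direction of NID2 reversed in the authors' normalized values (2.95), and a probe of NID1 gave 0.09. These 2 higher (background 3.05%) and 2 lower (background 2.37%) were among 11 genes compared. Over the list the median was 1.0, with 7 higher (background 20.0%) and 3 lower (background 26.9%) without overlap. Relative to I2, P1 and P4 the median of the list was 1.63 in N7. Without the array labelled P1 COL17A1 made 3 higher.

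Single keratins differed between the sets, and their total did not. KRT5, a keratin of stratified epithelium, had 463 and 500 against 37.2, 77.5 and 32.7, and the adjacent KRT6A had 120 and 100 against 23.9 or less. KRT7 was 3450 and 3930 against 222, 93.9 and 1860, with P4 high and a gap below the limit (0.89). Of 32 junction genes, CLDN8, CLDN12 and PKP2 were set apart higher (background 3.05%) and 0 lower (background 2.37%). The summed signal of the 11 keratins was 533000 in I9 and 1010000 in N2 against 596000, 1010000 and 861000 in I2, P1 and P4, so that the sums of the sets overlapped.

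Mesenchymal markers were followed because feeder cells and SCs express them. Of 32 compared, THBS1, ACTA2, LOXL2 and TAGLN were set apart higher (background 3.05%). LOX, a matrix cross-linking oxidase, was set apart lower (background 2.37%), and the median of the list was 0.53. A probe of LOXL2 gave -0.17, and without the array labelled P1 CNN1 made 5 higher. The summed signal was 64300 in I9 and 88500 in N2 against 30600 to 41300 in I2, P1 and P4, 120000 in N7, and 1760000 and 2230000 in SCs. Of the defining genes, COL1A1 overlapped between the sets, at 2200 and 2300 against 1090, 1090 and 2340, where SCs had 80100 and 99700. VIM was higher in I9 and N2 without overlap, though not set apart, at 3770 and 4410 against 1230, 781 and 3150, where SCs had 174000 and 215000. On each of the 5 arrays 31 or 32 of the 32 genes were detected, and neither COL1A1 nor VIM was at the floor. The part of feeder or mesenchymal cells in these values was not tested, and in bulk RNA more cells of a type and more RNA per cell cannot be told apart. The direction of LOX reversed in the authors' normalized values (0.09).

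Among regulators of growth and stress the counts were small, beside backgrounds of 3.05% higher and 2.37% lower over all genes compared. Of 16 p53 targets, TP53I3, an oxidoreductase, had 2850 and 3150 against 349, 242 and 509, and the death receptor FAS had 528 and 527 against 129, 207 and 143, whereas FDXR had 6700 and 6360 against 23400, 30400 and 19200. Of 21 hypoxia genes 0 were higher and 2 lower, BNIP3, of mitochondrial autophagy, with 4410 and 4680 against 18800, 46800 and 16400, and LOX, and the median was -0.53. EGLN3 was set apart higher without the array labelled P1, and the median was -0.32. Of 14 G1 regulators, CDK6 was higher (283 and 316 against 68.5, 119 and 133), with its direction reversed in the authors' normalized values, and CDKN1C and CDKN2D were lower. Folate receptors FOLR1 and FOLR3, adjacent genes, were lower, at 212 and 226 against 1580, 1210 and 1660 and at 243 and 215 against 1610, 1030 and 1270. SLC15A1, the peptide transporter of gut and yolk sac, was higher, with 5270 and 5020 against 1150, 2190 and 1180.

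General cell functions held no gene set apart, except TFRC of the housekeeping list, which was lower once the array labelled P1 was left out. These lists were the 59 ribosomal proteins of the cytosol, 39 subunits of oxidative phosphorylation, 30 mitosis genes, 20 genes of glycolysis, 18 of the unfolded protein response, 15 housekeeping genes and 14 heat shock genes. Their medians lay between -0.28 and 0.15. Of the 48 lists, 13 held no gene set apart, or 11 without the array labelled P1. Of the 39 subunits of oxidative phosphorylation 19 were lower without overlap (background 26.9%) and 4 higher (background 20.0%), at a median of -0.19 against -0.07 over all genes.

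Genes set apart upward were unevenly spread over chromosomes, a pattern that was looked for after the values were seen. Chromosome names are those of the RefSeq annotation of ARS-UCD2.0. On chromosome 4 the median difference of the 288 genes compared was 0.80, a 1.75-fold higher signal in I9 and N2, and 88.9% of the genes were higher. The median was 0.29 on chromosome 5 (607 genes, 74.6% higher) and 0.32 on chromosome 12 (160 genes, 76.9% higher). On the other 27 chromosomes it lay between -0.23 and 0.16, with 30.9% to 62.5% of genes higher. Chromosome 4 held 51 genes set apart higher and 1 lower, chromosome 5 held 37 and 7, and chromosome 12 held 16 and 0.

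Together chromosomes 4, 5 and 12 held 104 of the 317 placed genes set apart higher (32.8%) and 10.2% of the genes compared. On them 9.86% of the genes were set apart higher, against 2.28% on the other chromosomes. VIPR2, TMEM140, PTN, DLX5, CDK6, IL6 and CD36, a fatty acid transporter, lie on chromosome 4. BHLHE41, TIMP3, DUSP6, KRT5, KRT6A and USP18 lie on chromosome 5, and GJB6, GPR183 and SLC15A1 on chromosome 12. EZH2, the histone methyltransferase of Polycomb, MET, the receptor of hepatocyte growth factor, and CBX3, a heterochromatin protein, all on chromosome 4, were named after their values were seen. EZH2 was 5060 and 4060 against 1770, 1640 and 1800, with 4860 in N7 and 1830 and 3040 in SCs, and CBX3 was 15000 and 15400 against 5340, 6690 and 6140.

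The shift on chromosome 4 ran along its whole length. When its genes were put in order of position and divided into 5 equal parts, the medians were 0.91, 0.90, 0.88, 0.71 and 0.75, with 12, 11, 12, 10 and 6 genes set apart higher. It was 0.69 when the genes set apart were left out and 0.82 among genes with a signal of at least 500 on all 5 arrays. Within slide 1 it was 0.85 and within slide 2 it was 0.78. Set against SCs, with the median of each array taken off, I9, N2 and N7 were at 0.00 on chromosome 4 and I2, P1 and P4 at -0.78, -0.86 and -0.75. Here I9, N2 and N7 were at the level of SCs and I2, P1 and P4 were below it.

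Chromosomes 5 and 12 showed the opposite arrangement. On chromosome 5 I9 and N2 were at 0.33 and 0.34 above SCs and the other 4 eSLC lines between -0.05 and 0.00. On chromosome 12 I9 and N2 were at 0.53 and 0.52, P4 at 0.25 and the others between 0.01 and 0.10. On chromosome 23 N2 alone was raised, at 0.32 against 0.01 in I9. Gene copy number was not measured in these samples, and the cause of the shifts was not tested.

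**Figure D3:**
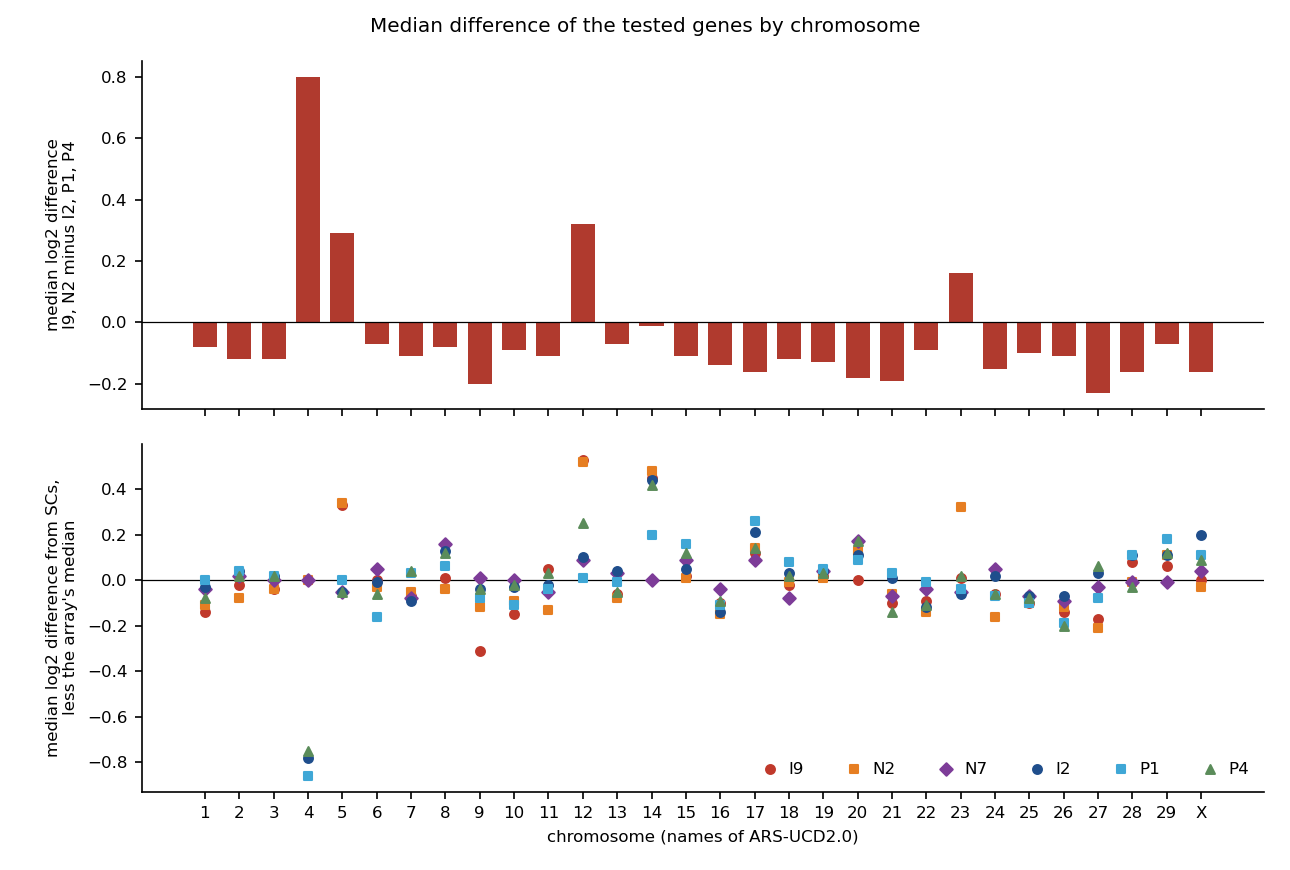
Median log2 difference of the compared genes on each chromosome, as bars for I9 and N2 minus I2, P1 and P4 (top) and as points for each eSLC array minus SCs after taking off the array's median (bottom). The bar of chromosome 4 reaches 0.80, and below it I2, P1 and P4 lie between -0.75 and -0.86 while I9, N2 and N7 lie at 0.00.

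Genes set apart were also found side by side. Counting genes next to each other among those compared, 60 of the 318 lay in 30 runs and 33 of the 247 in 15 runs. Many of the upward runs lay on chromosomes 4, 5 and 12, where 9.86% of genes were set apart higher against 2.28% elsewhere. The number of runs to be expected from these shares was not worked out. Upward runs held GJB6 with GJB2, F2RL2 with F2R, KRT5 with KRT6A, ACTA2 with FAS, TNF with AIF1, and PAG12 with PAG5. Downward runs held PHLDA2 with CDKN1C, ASCL2 with TSPAN32, FOLR1 with FOLR3, a group of 3 serum amyloid A genes (SAA3, SAA2 and M-SAA3.2) and a group of 4 genes that included BRB and RNASE6, both of the ribonuclease A family. SAA3, an acute-phase protein, was 253 and 172 against 956, 902 and 761. Neighbours of a gene family may share probe sequence, which the array files do not settle.

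N7 is in neither set, and its values at the same genes are given as a description. Its signals may be why it was left out, so its place relative to the sets may be partly fixed by that choice. At the 318 genes set apart higher N7 was nearer to I9 and N2 at 81 (25.5%), and its median difference from I2, P1 and P4 was 0.23, against -0.11 over all genes compared. At the 247 genes set apart lower it was nearer to I9 and N2 at 108 (43.7%), with a median of -0.77. On chromosomes 4, 5 and 12 it was nearer to I9 and N2 at 38 of 104 genes set apart higher (36.5%), and elsewhere at 43 of 214 (20.1%). On chromosome 4 the median of N7 minus I2, P1 and P4 was 0.81, and on chromosomes 5 and 12 it was -0.14 and -0.05. N7 thus had the level of I9 and N2 on chromosome 4 and that of I2, P1 and P4 on the other pair. SUMF2, of chromosome 25 and named after its values were seen, was 430 and 642 against 13.8, the floor and 15.7, with 697 in N7 and 1200 and 1140 in SCs, though its second probe gave only 0.49.

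**Figure D4:**
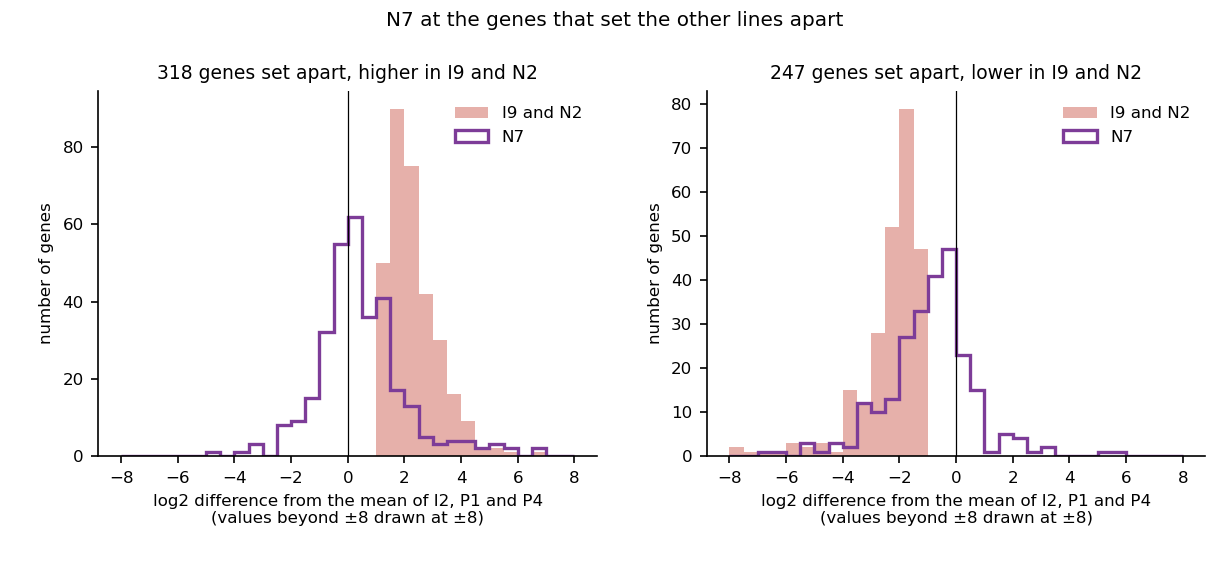
Number of genes by log2 difference from the mean of I2, P1 and P4, for I9 and N2 (filled) and for N7 (line), at the 318 genes set apart higher (left) and the 247 set apart lower (right). N7 centres near 0 at the former (median 0.23) and spreads toward I9 and N2 at the latter (median -0.77).

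SCs stood nearer to I9 and N2 at 143 (SC P5) and 140 (SC P10) of the 318 genes set apart higher, and at 165 and 170 of the 247 set apart lower. All 6 lines were also compared with the 2 SC arrays by limma, with a mean for each of IVP, NT, PA and SC. Genes were called at an adjusted p under 0.05 and at least 2-fold, and 2155 of 10957 (19.7%) were higher in the lines and 1720 (15.7%) lower. Of the 305 genes set apart higher that were tested, 70 (23%) were higher in the lines than in SCs and 79 (25.9%) lower. Of the 247 set apart lower, 87 (35.2%) were higher in the lines and 23 (9.3%) lower, and their median difference from SCs was 1.42 against 0.23 over all genes. I2, P1 and P4 are 3 of the 6 lines averaged here and their signals chose the genes, so these shares are partly fixed by that choice and are given as a description.

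Examples from limma cover both directions. PAG4 rose by 9.4 on the log2 scale in the lines over SCs (standard error 1.0, limma adjusted p = 0.000801, higher in 6 of 6 lines), and ALPI rose by 10.78 (standard error 1.45, limma adjusted p = 0.00203, 6 of 6). DNMT3A rose by 3.99 (standard error 0.89, limma adjusted p = 0.0136) and DNMT3B by 4.59 (standard error 0.84, limma adjusted p = 0.0064), so that I9 and N2, although lower than the other lines, remained above SCs. THBS1 fell by 9.2 (standard error 1.37, limma adjusted p = 0.00296) and LOX fell by 8.78 (standard error 0.66, limma adjusted p = 0.000217). GJB6 (4.21, standard error 2.68, limma adjusted p = 0.24) and CYP2C87 (4.59, standard error 2.15, limma adjusted p = 0.129) did not pass, with eSLC lines on both sides of a wide range. The spread behind these p-values was pooled over IVP, NT, PA and SC, so most of it comes from pairs of different lines. Nothing says that the 2 SC passages were separate cultures, so the SC part may be technical only. The p-values assume that SCs vary as the pairs of lines do.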

How the data were processed

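RNA of 6 eSLC lines and of SCs at 2 passages was hybridized to 8 Agilent 1-colour bovine arrays. The authors deposited scanner output with linear signal intensity for each spot, not normalized between arrays, and a table of intensities normalized in GeneSpring. The processed signal in the deposited output did not follow the other columns in 6 of 8 files, so the background-subtracted intensity was used. Control and outlier spots (1 to 11 per array) were left out, spots of 1 probe were averaged, and signals were divided by the 75th percentile of the array (1192 to 4092 scanner units), set to 1000, floored at 13.3 and taken to log2. Of 43653 probes 26743 matched a RefSeq accession, for 12602 genes, 8159 of them with several probes, of which the brightest was used. Lines were compared with SCs by limma 3.58.1 (R 4.3.3), with Benjamini-Hochberg adjustment.

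The members and the gene lists were chosen with earlier results of these data known. Named genes were the 12 with the widest gap in each direction, the 8 brightest in each direction that were nowhere well above background in the dimmer set, and members of the lists. Genes outside this rule are marked in the text. Some genes are not reported here. Alternatives were another scaling, quantile normalization, normexp on the median signal (no mean signal was present) with offset 50, the processed signal, the authors' normalized values, the mean of probes, other filters and thresholds, each array left out, N7 added to a set, and each slide alone. The limma fit was run on simulated data first.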

Additional observations from a re-analysis of the deposited data

How the results depend on the processing

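The number of lines limits every value, as each line is 1 array. Scaling to the median, quantile normalization, the mean of probes and other filters kept both counts within 1.5 times. Genes set apart higher and lower numbered 39 and 3 with the processed signal, 182 and 90 in the authors' normalized values (156 and 81 of them shared), 68 and 76 with N7 added to I9 and N2, 795 and 826 within slide 1 (the IVP lines), 558 and 466 within slide 2, 639 and 624 at 1.5-fold, 77 and 59 at 4-fold, and 692 and 698 by means 2-fold apart without overlap. The lower count was 144 under normexp and 122 with N7 added to I2, P1 and P4. Under the rule, using fewer arrays can only add genes, and adding an array to a set can only remove them. Leaving out each array gave 379 to 490 and 299 to 439. The highest counts were those without I9 (490 and 411) and without P4 (461 and 439). The processed signal, which did not track the other columns of 6 files, moved the median of all genes to 0.31, against -0.14 to -0.02 otherwise.

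The median of chromosome 4 was 0.72 under normexp, 0.90 with the processed signal, 0.66 in the authors' values, 0.49 with no filter, 0.61 with N7 added to I2, P1 and P4, and 0.69 without the genes set apart. That of chromosome 5 was 0.55 with the processed signal, 0.14 in the authors' values, 0.20 with no filter, 0.14 with N7 added to I9 and N2, and 0.34 within slide 1 (the IVP lines). That of chromosome 12 was 0.51, 0.13, 0.19 and 0.17 under the first 4 of these, and 0.25 without the genes set apart. For lines against SCs, genes called higher numbered 1359 in the authors' values and 1279 to 2194 with each array left out, and genes called lower 1095 to 1737. By the methods' t-test they numbered 2173 and 1742 at an unadjusted p under 0.05 and 1985 and 1605 after Benjamini-Hochberg adjustment. The lowest of both, 1279 and 1095, came without SC P5, where the lone SC array was assumed to vary like the other conditions.

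Of 2168 values of the 122 named genes set apart, under 18 alternatives, 2139 kept their sign. In the settings that left out an array, used 1 slide or the IVP lines, or changed only the filter, no sign could reverse. The rule itself places every array of a set beyond every array of the other. Slide 1 and the IVP lines are also the same comparison, I9 against I2. All 29 reversals came from the other settings. With the processed signal the difference was -0.65 for CDK6, -1.02 for DLX5, 0.44 for DNMT3A, 0.09 for FDXR, 1.09 for FZD7, -0.35 for GML, -0.75 for HEPACAM2, 0.00 for LIG1, 0.61 for LOX, 1.37 for NAP1L5, 3.48 for NID2, -0.65 for PIK3C2G, -0.38 for PPARG, -0.22 for TRIM55, -0.44 for WNT11 and -0.55 for WNT6. In the authors' values it was -1.16 for CDK6, -1.54 for DLX5, 0.57 for FZD7, 0.09 for LOX, 0.85 for NAP1L5, 2.95 for NID2, -0.91 for PPARG, -0.26 for RPAP2, -0.95 for WNT11 and -1.08 for WNT6. With the mean of probes it was -0.75 for CTSV, and with N7 added to I9 and N2 it was 0.61 for NID1 and 0.24 for NID2. At each gene reversed under both the processed signal and the authors' values, the latter lay lower by a similar step. These settings are therefore not separate evidence at those genes. Other causes of the changes in sign were not tested.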

Other observations

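N7 lay apart from the other eSLC lines on chromosome 14. Its median log2 difference from I2, P1 and P4 there was -0.47, against -0.24 to 0.04 on the other chromosomes apart from 4, 5 and 12. Relative to SCs, with the median of each array taken off, N7 was at 0.00 on chromosome 14, and I9, N2, I2 and P4 were between 0.42 and 0.48, with the array labelled P1 at 0.20. N7 also held the highest signal of markers of hypoblast and visceral endoderm among the eSLCs, a summed 276000 over 23 genes against 90500 to 134000 on the other 5 arrays.

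Of 3 genes of the piRNA pathway, GTSF1 and ASZ1 were chosen after their values were seen. GTSF1, a factor of that pathway, was at the floor in I9, 20.9 in N2, 418 in I2, 1420 in P1, 1530 in P4 and 4600 in N7. ASZ1, of the same pathway, was 55.7 and 54.7 against 822, 374 and 481, with 2040 in N7, although it lies on chromosome 4, where it was the only gene set apart lower. MAEL, also of that pathway, was at the floor in I9 and N2, 172 in I2, 56.5 in P1, 35.9 in P4 and 506 in N7. In all 3 N7 was the highest of the 8 arrays and I9 and N2 were the lowest eSLCs. Of the 10 germline and meiosis genes compared, MAEL was the only one set apart (10% against a background of 2.37%), the median was -0.21, and GTSF1 and ASZ1 are not in that list.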
